A study of Mus musculus with 9 samples.

Results

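The Dppa genes, named as developmental pluripotency-associated genes, were followed across induced pluripotent stem cells, embryonic stem cells and fibroblasts of the mouse. All 4 genes chosen by name, Dppa2, Dppa4, Dppa3 and Dppa5a, were measured, among 19938 genes in all. Each was read from the probe set whose annotation gave its symbol alone and that had the highest mean signal. A probe set is the group of array probes that reports 1 transcript region. Dppa2, Dppa3 and Dppa4 each had a second probe set with the same symbol, and Dppa5a had 1 probe set, so 7 probe sets are described. Probe sequences were not used here, so either probe set of such a pair may also report a processed copy of the gene elsewhere in the genome, and which locus each one measured cannot be told apart.

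RNA of 9 cultures was measured on Affymetrix whole-transcript arrays, with 3 arrays per group. The iPS cells are induced pluripotent stem cells that were made from mouse embryonic fibroblasts. R1 is an established embryonic stem cell line, and MEF are cultured embryonic fibroblasts at a passage below 3, the cells of origin of the iPS cells. The design text calls the arrays of a line biological repeats. It does not say whether the iPS arrays came from 1 clone, and neither the reprogramming factors nor the mouse strains are given in the sources. R1 is a single line, so a trait of R1 and a trait of embryonic stem cells cannot be told apart.

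Dppa2 and Dppa4 are nuclear proteins with a SAP domain that bind DNA. They act as a pair on chromatin, keep promoters of developmental genes poised, and in mouse embryonic stem cells promote the transcription factor Dux and the genes of the early zygote that follow it. Dppa3, also called Stella or PGC7, is a maternal factor that protects DNA methylation in the zygote, restrains the methylation cofactor Uhrf1, and marks primordial germ cells. In cultures of mouse embryonic stem cells it is known to be present in some cells and absent from others. Dppa5a, also called Esg1, is a KH-domain protein that binds RNA and is a marker of undifferentiated stem cells.

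The cell labels were set against marker genes. The summed signal of 5 embryonic stem cell markers, among them Pou5f1, Sox2 and Nanog, was 17152 to 18128 in iPS arrays and 19031 to 19843 in R1 arrays, against 235 to 287 in MEF arrays. The summed signal of 10 fibroblast markers was 3391 to 4113 in iPS arrays and 2329 to 3334 in R1 arrays, against 32944 to 37824 in MEF arrays. In a fit over all genes, 12.7% were called in iPS against MEF, 13.5% in R1 against MEF and 0.461% in iPS against R1. A gene was called at a limma adjusted p under 0.05 and a difference of at least 1 on the log2(signal + 16) scale, and genes are said to have risen or fallen only where they were called.

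Dppa2, Dppa4 and Dppa5a were high in both pluripotent lines and low in the fibroblasts, and limma called 0 of the 3 between iPS and R1 cells, with 0 of 3 at an unadjusted p under 0.05 as well. Dppa3 differed from them. It rose in iPS cells against MEF, by 2.10 on the log2 scale, and rose in iPS cells against R1, while R1 cells differed from MEF by only 0.47 and were not called. So 4 of the 4 genes were called higher in iPS against MEF, against 5.08% of all genes in that direction and 7.58% in the other. In R1 against MEF 3 of 4 were called higher, against 5.56% of all genes in that direction and 7.94% in the other. In iPS against R1 1 of 4 was called higher, against 0.296% of all genes in that direction and 0.166% in the other. The arrays measured bulk cultures, in which fewer expressing cells and less RNA per cell cannot be told apart. The plot of signals by array shows all 7 probe sets.

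**Figure D1:**
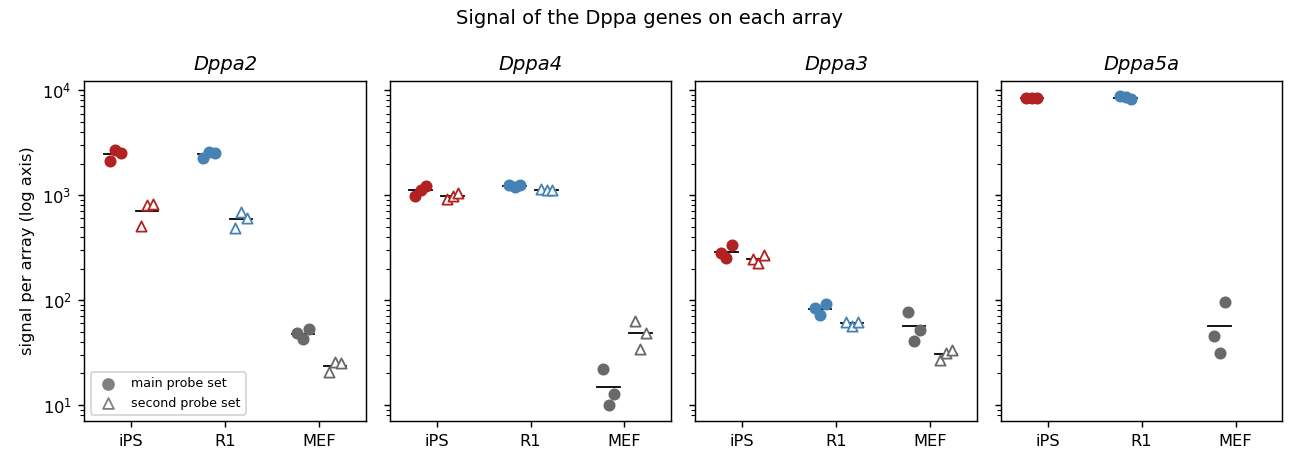
Signal of each Dppa gene on each array, on a log axis, for iPS, R1 and MEF cultures (3 arrays each). Filled circles are the main probe set, open triangles the second one, and bars are group means. Dppa3 is the gene whose R1 arrays lie near the MEF arrays, with iPS signals of 251 to 338 above R1 signals of 72.0 to 92.4.

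Dppa2, the first of the SAP-domain pair, had signals of 2135, 2702 and 2504 in iPS replicates 1 to 3 and of 2241, 2592 and 2539 in R1 replicates 1 to 3, against 48.2, 42.8 and 53.1 in MEF replicates 1 to 3. Every pluripotent array lay far above every MEF array, and the iPS and R1 arrays overlapped. The difference was 5.26 ± 0.10 in iPS against MEF (SE; limma adjusted p = 5.68e-10) and 5.27 ± 0.10 in R1 against MEF (limma adjusted p = 5.24e-10). Both comparisons share the MEF arrays. The MEF signals of the Dppa genes are dim and not told apart from background, since no detection calls were used, and the added 16 weighs most on such signals, so no fold of raw signals is given against them. Between the pluripotent lines the difference was -0.01 with a 95% interval of -0.23 to 0.21 (limma adjusted p = 0.981).

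The second probe set of Dppa2 read 508, 798 and 826 in iPS replicates 1 to 3 and 488, 695 and 605 in R1 replicates 1 to 3, against 20.5, 25.5 and 25.3 in MEF replicates 1 to 3. It gave the same order of fibroblasts below pluripotent cells, with smaller differences of 4.16 ± 0.18 in iPS against MEF and 3.93 ± 0.18 in R1 against MEF. In iPS against R1 it gave 0.23 with a 95% interval of -0.18 to 0.64. Both probe sets read replicate 1 as the lowest array of the iPS group and of the R1 group.

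Dppa4, the partner of Dppa2, had signals of 976, 1121 and 1235 in iPS replicates 1 to 3 and of 1252, 1201 and 1243 in R1 replicates 1 to 3, against 21.9, 9.92 and 12.8 in MEF replicates 1 to 3. The pluripotent arrays were again far above all MEF arrays, and iPS replicate 3 lay within the range of the R1 arrays while the other 2 iPS arrays lay below it. Dppa4 rose by 5.20 ± 0.13 in iPS against MEF (limma adjusted p = 2.56e-09) and by 5.36 ± 0.13 in R1 against MEF (limma adjusted p = 1.83e-09). The difference of iPS from R1 was -0.15 with a 95% interval of -0.45 to 0.14 (limma adjusted p = 0.629). The second probe set read 910.2, 989 and 1060.1 in iPS replicates 1 to 3 and 1152, 1113 and 1128 in R1 replicates 1 to 3, against 62.7, 34.3 and 48.8 in MEF replicates 1 to 3. On this probe set every iPS array lay below every R1 array, but the difference was small, at -0.20 with a 95% interval of -0.50 to 0.11 (limma adjusted p = 0.513). Its differences from MEF were 3.98 ± 0.14 for iPS and 4.17 ± 0.14 for R1 cells. As with Dppa2, replicate 1 was the lowest iPS array on both probe sets.

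Dppa5a, the KH-domain gene, had signals of 8364, 8364 and 8481 in iPS replicates 1 to 3 and of 8719, 8659 and 8192 in R1 replicates 1 to 3, against 45.6, 31.1 and 95.01 in MEF replicates 1 to 3. The iPS arrays lay inside the range of the R1 arrays, and the MEF arrays spread more on the log scale than those of either pluripotent line. The differences were 6.94 ± 0.24 in iPS against MEF (limma adjusted p = 1.64e-08) and 6.96 ± 0.24 in R1 against MEF (limma adjusted p = 1.30e-08). In each of these comparisons Dppa5a had the largest increase of all called genes. In iPS against R1 the difference was -0.02 with a 95% interval of -0.57 to 0.53. The interval is the widest of the 4 genes, and the spread that sets it is pooled over groups and so includes the MEF arrays. The RefSeq gene table also names the pseudogenes Dppa5b and Dppa5c beside Dppa5a and Dppa3-ps for Dppa3. No probe set carries their symbols, so signal from such copies cannot be told apart from that of the genes.

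Dppa3 had signals of 282, 251 and 338 in iPS replicates 1 to 3 and of 83.3, 72.0 and 92.4 in R1 replicates 1 to 3, against 76.6, 40.5 and 51.6 in MEF replicates 1 to 3. All 3 iPS arrays lay above all R1 and MEF arrays, while MEF replicate 1 lay above R1 replicate 2. Dppa3 rose by 2.10 ± 0.17 in iPS against MEF (limma adjusted p = 3.89e-06) and by 1.63 ± 0.17 in iPS against R1 (limma adjusted p = 0.000660). The rise against R1 is the 10th largest increase among the genes called higher in iPS against R1. In R1 against MEF the difference was 0.47 ± 0.17 (limma adjusted p = 0.0452), below the minimum of 1 that a call required. The order of levels was iPS, R1, MEF, and the R1 and MEF arrays overlapped. Signals as low as those of Dppa3 in R1 and MEF arrays are likewise not told apart from background.

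The second probe set of Dppa3 read 247, 224 and 271 in iPS replicates 1 to 3 and 61.4, 57.3 and 61.4 in R1 replicates 1 to 3, against 26.9, 31.6 and 33.8 in MEF replicates 1 to 3. Here the 3 groups did not overlap, and R1 lay between iPS and MEF. The difference was 1.79 ± 0.08 in iPS against R1 (limma adjusted p = 5.65e-06) and 2.49 ± 0.08 in iPS against MEF (limma adjusted p = 7.70e-09). In R1 against MEF it was 0.70 ± 0.08 (limma adjusted p = 2.60e-05), again under the minimum of 1. Both probe sets placed iPS cells above R1 cells, and they differed in whether R1 arrays overlapped MEF arrays. As they may read the gene, a copy of it or both, they are not independent readings of Dppa3. Fibroblast markers were higher in sum in iPS than in R1 arrays and highest in MEF arrays. The signal of Dppa3 in MEF arrays was below that of every iPS array on either probe set. The part of fibroblasts in the Dppa3 difference was not tested.

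**Figure D2:**
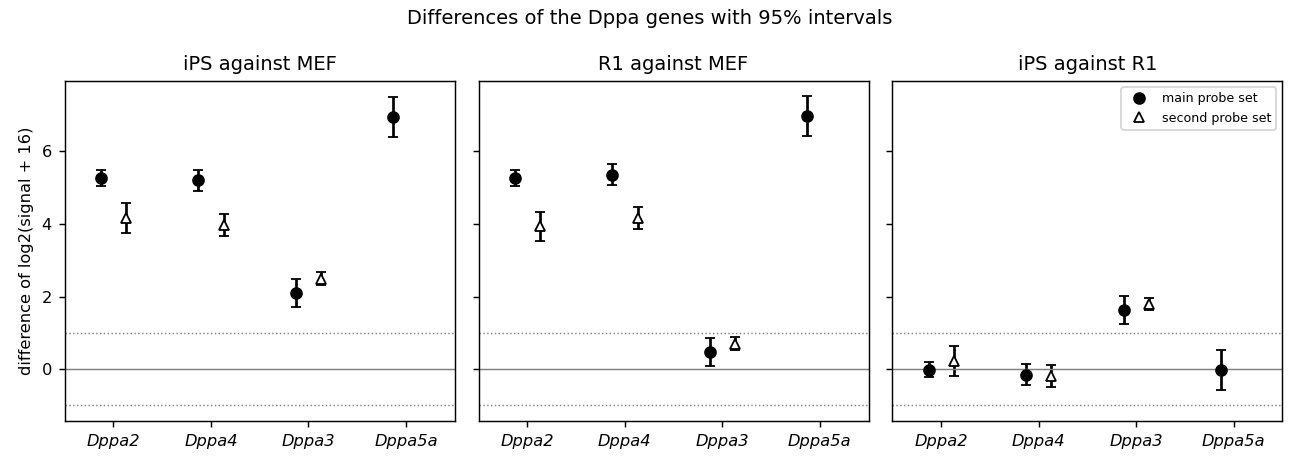
Difference of log2(signal + 16) for each Dppa gene in the 3 comparisons (iPS over MEF, R1 over MEF, iPS over R1, 1 panel each), with 95% intervals of the limma fit. Filled circles are main and open triangles second probe sets, and dotted lines mark the minimum difference of 1. Dppa3 is the gene that lies above the dotted line in iPS against R1, at 1.63 and 1.79 for its 2 probe sets.

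The contrast between Dppa3 and the other Dppa genes was also taken within each array. The log2 value of Dppa3 less the mean of the other 3 genes was -3.13, -3.47 and -3.08 in iPS replicates 1 to 3, against -4.88, -5.10 and -4.78 in R1 replicates 1 to 3. The iPS cells thus exceeded R1 cells by 1.69 in this measure, and 3 of 3 iPS arrays lay above all R1 arrays. This value restates the Dppa3 difference of 1.63, as the other 3 genes differed little between the lines, and is a description. A two-sided exact permutation test of 3 against 3 arrays cannot go below p = 0.1.

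The genes with the most similar pattern were found by the root mean square difference of log2 values over the 9 arrays, after each gene was centred on its own mean. Pearson correlations are over the same 9 arrays, which fall into fibroblasts and pluripotent cells, so they are descriptions only. The nearest to Dppa2 were Fam169a (0.15, r = 0.998), Dppa4 (0.16, r = 0.998) and the transcribed pseudogene Gm6083 (0.17, r = 0.999). The nearest to Dppa4 were Dppa2 (0.16), Fam169a (0.17) and Utf1, a chromatin factor of undifferentiated stem cells (0.18, r = 0.998). Out of all genes, then, Dppa2 was the one closest to Dppa4, and Dppa4 was second closest to Dppa2. The nearest to Dppa5a were Tdgf1, a co-receptor of Nodal (0.24), the nuclear receptor Nr0b1 (0.26) and Pou5f1, which encodes Oct4 (0.56).

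Dppa3 had other neighbours in pattern. The nearest were Rab25 (0.26, r = 0.964), a small GTPase of epithelial membrane traffic, Arl14epl (0.29, r = 0.953) and Elf3 (0.29, r = 0.958), an epithelial transcription factor. Arl14epl averaged 379 ± 93 in iPS arrays and 101 ± 5.0 in R1 arrays, against 70.0 ± 8.3 in MEF arrays (SD, n = 3 each). It rose by 1.73 ± 0.14 in iPS against R1. These genes were picked for likeness to Dppa3 over the same arrays. A higher level in iPS than in R1 cells follows from that choice, so their differences are descriptions. Rab25 averaged 253 ± 63 in iPS arrays and 108 ± 16 in R1 arrays, against 54.1 ± 5.1 in MEF arrays, and rose by 1.09 ± 0.15 in iPS against R1. That call was lost without iPS replicate 3 (0.91), without R1 replicate 2 (0.99), with a pseudocount of 64 (0.86) and with array weights (0.99). Elf3 differed by 0.999 between iPS and R1, just under the minimum for a call. The other Dppa genes were far from this pattern, with root mean square differences from Dppa3 of 2.005 for Dppa2, 2.02 for Dppa4 and 2.77 for Dppa5a.

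The genomic neighbours of the Dppa genes were taken as the 3 nearest measured genes on each side in the RefSeq gene table of GRCm38.p6. Of the 18 neighbours other than the Dppa genes, 7 rose and 1 fell in iPS against MEF, and the same counts held in R1 against MEF. Of all genes 5.08% rose and 7.58% fell in iPS against MEF, and 5.56% rose and 7.94% fell in R1 against MEF. In iPS against R1, 0 of the 18 were called by limma (5 at an unadjusted p under 0.05), against 0.461% of all genes. At so small a share, 0 of 18 does not set the neighbours apart from other genes. Without the minimum difference, 3 of the 18 had a limma adjusted p under 0.05, against 1699 of all 19938 genes. The differences of the 18 lay between -0.81 and 0.38. Dppa3 lies between Gdf3, a growth factor of the TGF-beta family, and Nanog, a homeobox factor of the pluripotency network, with the glucose transporter gene Slc2a3 next to Nanog. These 3 neighbours rose in both pluripotent lines. Gdf3 rose by 4.50 ± 0.08 in iPS against MEF and by 4.25 ± 0.08 in R1 against MEF. Nanog rose by 5.82 ± 0.09 in iPS against MEF and by 5.68 ± 0.09 in R1 against MEF. Slc2a3 rose by 4.60 ± 0.09 in iPS against MEF and by 4.54 ± 0.09 in R1 against MEF. Between iPS and R1 cells Gdf3 differed by 0.25 and Nanog by 0.14, against 1.63 for Dppa3.

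**Figure D3:**
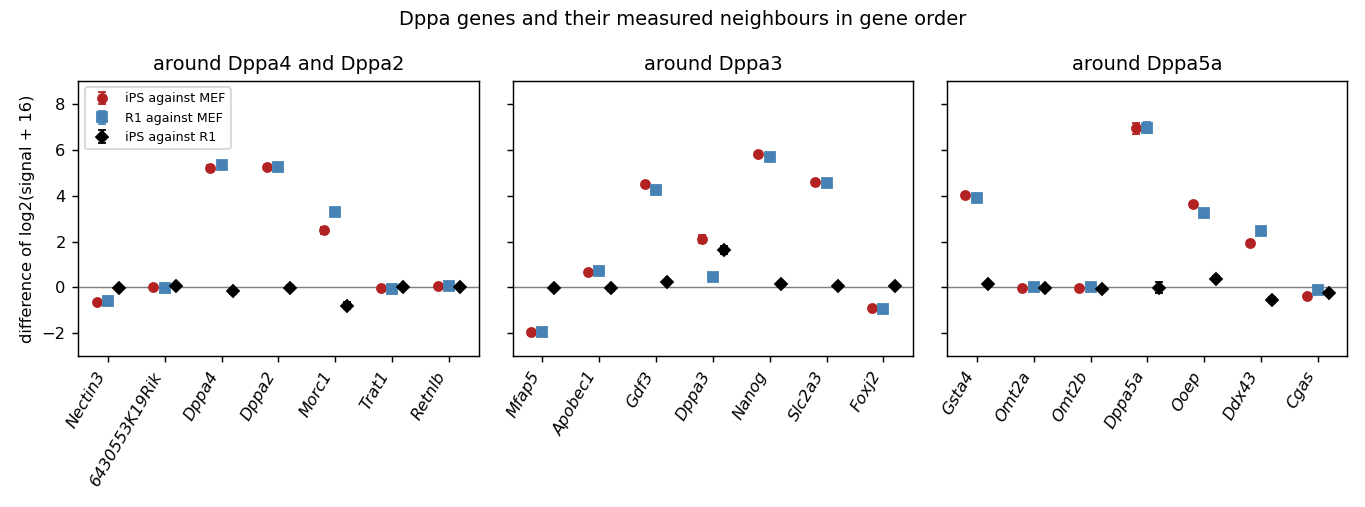
Differences of log2(signal + 16) with the SE of the limma fit, in gene order without scale. The panels show Dppa2, Dppa3 and Dppa5a with the 3 nearest measured genes on each side. Dppa4 is drawn beside Dppa2, and Cd96, a neighbour of Dppa4 only, is not drawn. Circles are iPS against MEF, squares R1 against MEF and diamonds iPS against R1. Dppa3 is the gene with a diamond above 1, while Gdf3, Nanog and Slc2a3 beside it are high in both pluripotent lines.

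Dppa4 and Dppa2 are direct neighbours, and the next gene, Morc1, a factor of transposon silencing in male germ cells, also rose in both lines. Morc1 rose by 2.49 ± 0.15 in iPS against MEF and by 3.30 ± 0.15 in R1 against MEF. Its difference between iPS and R1 was -0.81 ± 0.15 (limma adjusted p = 0.0119), not called because its size was under 1. Nectin3, a cell adhesion gene, differed by -0.64 in iPS against MEF and was not called. Beside Dppa5a lies Ooep, a KH-domain gene of the oocyte. Ooep averaged 1312 ± 119 in iPS arrays and 1001 ± 52 in R1 arrays, against 92.0 ± 14 in MEF arrays, and it rose by 3.62 ± 0.10 in iPS against MEF and by 3.24 ± 0.10 in R1 against MEF. Ddx43, an RNA helicase gene, rose by 1.92 ± 0.12 in iPS against MEF and by 2.46 ± 0.12 in R1 against MEF. On the other side of Dppa5a, Gsta4, a glutathione transferase gene, rose by 4.05 ± 0.06 in iPS against MEF, while Omt2a and Omt2b, which lie between it and Dppa5a, had signals near the floor of the scale in every group and were not called.

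Related genes were followed in 7 lists, and the counts below leave out the Dppa genes themselves. Over all genes the median difference was 0.02 in iPS against MEF, 0.02 in R1 against MEF and -0.01 in iPS against R1. In iPS against MEF 5.08% of all genes rose and 7.58% fell, and in R1 against MEF 5.56% rose and 7.94% fell. In iPS against R1, 0.296% rose and 0.166% fell. Of 22 genes of undifferentiated stem cells, 21 rose in iPS against MEF and 21 rose in R1 against MEF, with median differences of 4.48 and 4.61. Khdc3, whose difference was 0.17 in iPS against MEF, was the one not called, and it is named here outside the rule for named genes. Between iPS and R1 cells the median was -0.23 and 1 of the 22 was called. This was Zfp42, also called Rex1, which averaged 506 ± 55 in iPS arrays, against 3539 ± 257 in R1 arrays, and fell by 2.77 on the log2 scale. Dppa3 and Zfp42, both markers of naive pluripotency, thus differed in opposite directions between the 2 lines.

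Dppa3 acts on DNA methylation, so writers, readers and erasers of that mark were listed. Of 12 measured genes, 5 rose and 1 fell in iPS against MEF, and the same counts held in R1 against MEF. Of all genes 5.08% rose and 7.58% fell in iPS against MEF. Dnmt3l, a cofactor of new methylation, rose by 5.44 ± 0.15 in iPS against MEF, the methylcytosine oxidase Tet1 by 4.67 ± 0.13, the methyltransferase Dnmt3b by 3.99 ± 0.13 and Tet2 by 2.54 ± 0.11. Uhrf1, the protein that Dppa3 restrains, averaged 1920 in iPS arrays and 1877 in R1 arrays, against 1074 in MEF arrays, and Dnmt1, the maintenance methyltransferase that Uhrf1 recruits, differed by 0.16 in iPS against MEF. Uhrf1 differed by 0.83 ± 0.06 in iPS against MEF and by 0.80 ± 0.06 in R1 against MEF, under the minimum of 1. Neither Uhrf1 nor Dnmt1 was called, and both are named outside the rule. Between iPS and R1 cells 0 of the 12 were called by limma (6 at an unadjusted p under 0.05), against 0.461% of all genes. At so small a share, 0 of 12 does not set the list apart from other genes. Without the minimum difference, 3 of the 12 had a limma adjusted p under 0.05, against 1699 of all 19938 genes. The median difference was 0.04. The largest differences of the 12 were 0.68 for Dnmt3b (limma adjusted p = 0.0127) and -0.60 for Dnmt3a.

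Genes of the 2-cell stage, the set that Dppa2 and Dppa4 promote through Dux, showed no called difference. Only 9 of 20 listed genes were measured with a symbol of their own, and Dux itself and the Zscan4 genes were not among them. Of the 9, limma called 0 in each of the 3 comparisons, with 3 at an unadjusted p under 0.05 in iPS against MEF, 1 in R1 against MEF and 0 in iPS against R1. The shares called over all genes were 12.7% in iPS against MEF, 13.5% in R1 against MEF and 0.461% in iPS against R1. Without the minimum difference, 2 of the 9 had a limma adjusted p under 0.05 in iPS against MEF, against 9572 of all 19938 genes. In R1 against MEF and in iPS against R1 that count was 0. The differences of the 9 in iPS against MEF lay between -0.06 and 0.64, with a median of 0.05. In R1 against MEF the range was -0.14 to 0.65. All of them but Usp17ld (127 in iPS, 120 in R1 and 131 in MEF arrays) averaged below the array medians of 78.2 to 83.3 in every group. Usp17la, for one, averaged 9.43 in iPS, 9.74 in R1 and 9.22 in MEF arrays. Such signals are not told apart from background, so the lack of calls does not show that these genes were unchanged.

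Of 9 measured KH-domain and oocyte complex genes, the group to which Dppa5a is related, 2 rose and 1 fell in iPS against MEF. Over all genes 5.08% rose and 7.58% fell. Ooep and Nlrp4f rose and Zbed3 fell. Nlrp4f, an oocyte gene of the Nlrp family, was highest in iPS cells, as Dppa3 was. It averaged 66.5 ± 9.1 in iPS arrays and 16.2 ± 1.6 in R1 arrays, against 12.9 ± 1.4 in MEF arrays (SD, n = 3 each). In R1 and MEF arrays Nlrp4f was near the added 16 and not told apart from background, and R1 differed from MEF by 0.16 without a call. It rose by 1.35 ± 0.08 in iPS against R1 (limma adjusted p = 3.11e-05) and did not pass with a pseudocount of 64 in place of 16 (0.70). Nlrp5 and Padi6, other members of the complex named outside the rule, differed by 0.02 and 0.08 in iPS against MEF.

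Dppa3 is a marker of primordial germ cells, and 11 of 18 other germ cell genes rose in iPS against MEF, against 5.08% of all genes. Their median was 1.73. In R1 against MEF 11 rose and 1 fell. The receptor gene Kit rose by 3.61 ± 0.12 in iPS against MEF, the phosphatase gene Alpl by 3.33 ± 0.13, the helicase gene Ddx4 by 2.91 ± 0.19 and the transcription factor gene Tfap2c by 2.88 ± 0.07. In iPS against R1 the genes differed in both directions, with 1 called higher and 1 lower and a median of 0.06. Ifitm3, a membrane protein present on early germ cells and also induced by interferon, averaged 2847 ± 168 in iPS arrays, against 1306 ± 298 in R1 arrays, and rose by 1.14 ± 0.13. Its signal in MEF arrays was 3375 ± 108. Sycp3, which builds the axis of meiotic chromosomes, averaged 108 ± 19 in iPS arrays, against 279 ± 58 in R1 arrays, with a difference of -1.25 ± 0.15. With a pseudocount of 64 its difference was -0.99 and it was not called.

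Of 12 genes of the formative and primed epiblast, stages in which Dppa3 is known to be low, 7 rose in iPS against MEF and 7 rose in R1 against MEF. Over all genes 5.08% rose in iPS against MEF and 5.56% in R1 against MEF. In iPS against R1 the median was 0.06 and 1 was called. Otx2, a homeobox factor of the epiblast, averaged 294 ± 96 in iPS arrays, against 766 ± 224 in R1 arrays, with a difference of -1.34 ± 0.26 (limma adjusted p = 0.0132). The call was lost without R1 replicate 1 (limma adjusted p = 0.0584), without R1 replicate 3 (limma adjusted p = 0.0506) and with only both groups compared in the fit (limma adjusted p = 0.0505). Lefty1, an antagonist of Nodal, and Fgf5, a growth factor of the primed epiblast named outside the rule, had differences of 0.94 and 0.85 and were not called.

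Of 13 measured imprinted genes, the class whose methylation Dppa3 helps to protect in the zygote, 1 rose and 8 fell in iPS against MEF. Over all genes 5.08% rose and 7.58% fell. The median of the 13 was -1.15. Dlk1 fell by 3.35 and Igf2, a fetal growth factor, by 3.34. Between iPS and R1 cells the median was 0.19 and 1 was called. Peg3, a zinc-finger gene expressed from the paternal allele, averaged 911 ± 111 in iPS arrays and 307 ± 11 in R1 arrays, against 1111 ± 52 in MEF arrays. It rose by 1.51 ± 0.08 in iPS against R1 (limma adjusted p = 2.05e-05), and unlike Dppa3 it had its lowest level in R1 and its highest in MEF arrays. The plot of iPS against R1 by list sets Dppa3 beside these genes.

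**Figure D4:**
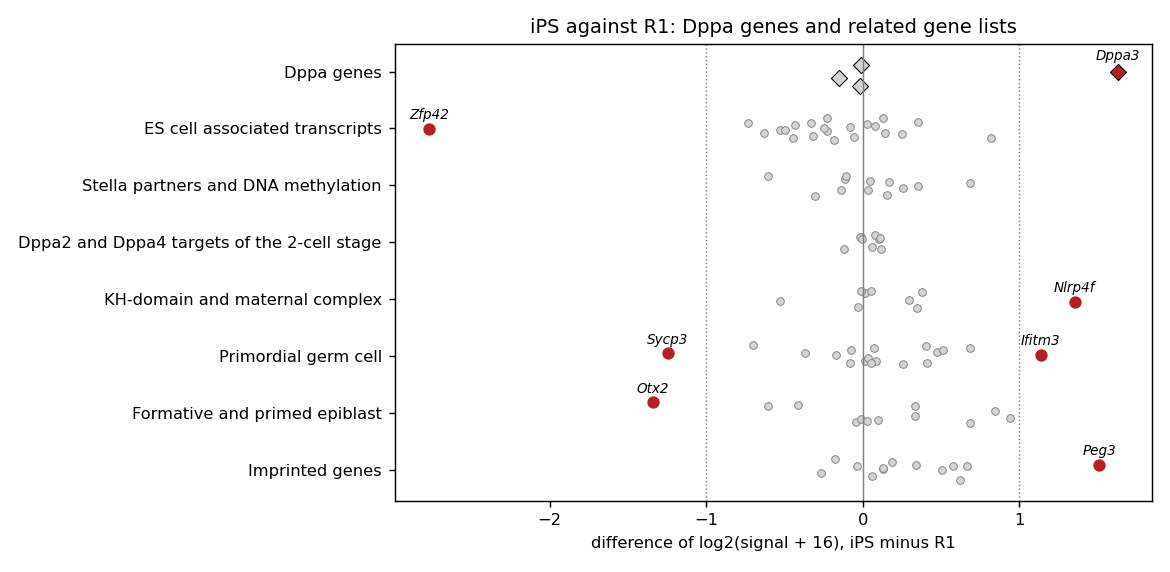
Difference of log2(signal + 16) in iPS minus R1 for the 4 Dppa genes (diamonds) and for the measured genes of 7 related lists (circles). Red marks called genes, which are named, and dotted lines mark a difference of 1 in each direction. Dppa3 at 1.63 stands apart from the other Dppa genes, and the called genes of the lists fall on both sides, from Zfp42 at -2.77 to Peg3 at 1.51.

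Markers of other cell types that such cultures can hold were set beside the Dppa3 difference. The summed signal of 7 trophoblast markers was 1145 to 1581 in iPS arrays, against 914 to 989 in R1 arrays, and that of 8 primitive endoderm markers was 945 to 1124 in iPS arrays, against 1225 to 1321 in R1 arrays. Of these 15 genes limma called 0 in iPS against R1, against 0.461% of all genes. At so small a share, 0 of 15 does not set these markers apart from other genes. At an unadjusted p under 0.05 were 7 of the 15. Without the minimum difference, 5 of the 15 had a limma adjusted p under 0.05, against 1699 of all 19938 genes. The differences of the 7 trophoblast markers ran from -0.06 to 0.77, with a median of 0.13, and those of the 8 primitive endoderm markers from -0.59 to 0.03, with a median of -0.24. The part of such cells in the Dppa3 difference was not tested. Dppa1, which carries the family name but is outside the 4 genes described, had signals of 8.75 to 10.6 over all 9 arrays, near the lowest values of the scale.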

How the data were processed

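The authors deposited 1 linear intensity per probe set and array for 35557 probe sets. Per the submitters' processing notes GCOS 1.4 was used, without a stated role, and for background correction and normalization the method is not given in the sources used here. Intensities lay between 4 and 18820, array medians between 78.2 and 83.3, and no further normalization was applied. Platform annotation gave 21789 probe sets 1 symbol, 1621 several, and 12147 were unlisted. Probe sets with several or no symbols were left out. Log2(signal + 16) values of 19938 genes were fitted with limma 3.58.1 (R 4.3.3; 1 mean per group, 9 arrays, 6 residual degrees of freedom) and adjusted by Benjamini-Hochberg over all genes. The script was tested on simulated data. The p-values reflect only the spread among the cultures of each group, which may be technical, and the 3 arrays per group limit precision.

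The genes, lists and tests were chosen with earlier results of these data known. Genes were named by rule: the 4 Dppa genes, 3 genes of most similar pattern, 3 neighbours on each side, the 4 largest called differences of each list in iPS against MEF, and list genes called in iPS against R1. Not every gene so chosen is printed. Of the 4 genes 0 matched the RefSeq promoter table, so the planned motif count was not made. Alternatives covered pseudocount, normalization, dim genes, probe sets, spread, call rule, replicate block and leaving out each array.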

Additional observations from a re-analysis of the deposited data

Results flagged for a closer look

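The change from MEF differed between the iPS and R1 lines, with a call in the direct limma test, for 9 of the genes described. Of all genes 0.461% were called in that test. List genes were named for a call in iPS against R1, so the count of 9 largely follows from that choice. Other described genes, among them Elf3 and Morc1, had a limma adjusted p under 0.05 but a difference under 1 in size, and are left out. Dppa3 exceeded its R1 level by 1.63 on the log2(signal + 16) scale, with 3 of 3 iPS arrays above all R1 arrays. Higher in iPS cells were also Arl14epl (1.73), Peg3 (1.51), Nlrp4f (1.35), Ifitm3 (1.14) and Rab25 (1.09). Arl14epl and Rab25 had been picked for likeness to Dppa3 over the same arrays, so their direction follows from that choice. Lower in iPS cells were Zfp42 (-2.77), Otx2 (-1.34) and Sycp3 (-1.25). When tested against a difference of 1, of these genes only Zfp42 was still called. With a pseudocount of 64 the calls of Nlrp4f, Sycp3 and Rab25 were lost, with array weights that of Rab25, and with only the 2 groups compared in the fit that of Otx2. Leaving out 1 array ended the call of Otx2 (without R1 replicate 1 or R1 replicate 3) and of Rab25 (without iPS replicate 3 or R1 replicate 2).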

How the results depend on the processing

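The calls of Dppa2, Dppa4, Dppa3 and Dppa5a in iPS against MEF, and of Dppa2, Dppa4 and Dppa5a in R1 against MEF, were kept under every alternative run. Dppa3 in iPS against R1 ranged from 1.27 to 1.80 and was not called when tested against a difference of 1 (1.63, limma adjusted p = 1). Without a minimum difference Dppa3 was called in R1 against MEF (0.47); its adjusted p there ran from 2.60e-05 with the second probe set, an alternative added after seeing the data, to 1. The near-zero difference of Dppa2 in iPS against R1 changed sign with the mean of all probe sets (0.11), array weights (0.069), the second probe set (0.23) and without 1 array (-0.084 to 0.084). Genes called in iPS against R1 numbered 92, and 45 with a pseudocount of 64, 144 with all probe sets tested, 1699 without a minimum difference and 10 against a difference of 1. Without a minimum 9572 genes were called in iPS against MEF and 9750 in R1 against MEF, and against a difference of 1 1643 were called in iPS against MEF. Same-numbered arrays did not deviate together in all pairs (r from -0.08 to 0.24, 4 of 9 pairs over 0.1, 4 of 9 arrays closest to their own number). The replicate 1 arrays did so in each pair, at 0.23 for iPS and MEF, 0.21 for R1 and MEF and 0.24 for iPS and R1. The number was not taken as a pairing in the main fit. With the replicate block Dppa3 in iPS against R1 stayed at 1.63 (limma adjusted p = 0.000741), and 92 genes were called. Of differences under 0.1 in genes other than the Dppa genes, 32 changed sign among 730 values, none of them called. Signals near background limit what can be said of Dppa3 in R1 and MEF cells.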
